A study of Homo sapiens with 6 samples.

Results

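The genes described here make, break down and sense prostaglandins: PLA2G4A, PTGS1, PTGS2, PTGES, PTGES2, PTGIS, HPGD, PTGER2 and PTGER4. They were chosen by gene symbol and are 9 of the 58299 genes in the count table. RNA was sequenced from AC16, an immortal line of human ventricle origin in which heart muscle cells were fused with SV40-transformed fibroblasts. The 3 control libraries came from cells in 0.1% DMSO for 72 h. The 3 treated libraries came from cells that had 100 nM CDDO-Me, a triterpenoid that activates NRF2, for 24 h and then 100 nM doxorubicin, a topoisomerase II poison, for 48 h. Cells given a single drug were not analysed here, so no difference can be assigned to one of the drugs, and the labels do not say whether replicates were separate cultures, so p-values measure only the spread between these libraries.

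Prostaglandins are short-lived lipid signals. Phospholipases such as the cytosolic phospholipase A2 encoded by PLA2G4A free arachidonic acid from membranes. The cyclooxygenases encoded by PTGS1 (COX-1, present in many tissues) and PTGS2 (COX-2, induced by stress and inflammation) turn it into prostaglandin H2, and terminal synthases convert that into prostaglandin E2 (PTGES, PTGES2), prostacyclin (PTGIS) and other products. The dehydrogenase encoded by HPGD inactivates prostaglandins, and prostaglandin E2 acts through the EP receptors, of which EP2 (PTGER2) and EP4 (PTGER4) raise cyclic AMP. In the heart, COX-2 and prostacyclin are best known for their roles in injury and in vascular tone.

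Both cyclooxygenase transcripts rose in treated cells, PTGS2 by 6.36-fold and PTGS1 by 2.39-fold. The prostaglandin E synthase gene PTGES2 fell by a factor of 1.22 and the receptor gene PTGER2 by a factor of 1.73. The transcripts of PLA2G4A, PTGES, PTGIS and PTGER4 were not called, and HPGD was nearly absent. Of the 9 genes, 8 passed the filter on low counts and were tested, and 4 of these were called (2 higher and 2 lower), where 63.5% of all 15575 genes tested were called, 32.3% higher and 31.2% lower. The median log2 change of the 8 was -0.18, beside 0.02 for all genes tested. The share of members called is thus no larger than that of genes at large, and what sets the members apart from each other is direction and size.

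Unless said otherwise, levels are TMM-normalised CPM (counts scaled for depth), with mean ± SD over each group (n = 3), and a log2 change above 0 means a higher level in treated cells, its standard error being written SE. A gene was called where the Benjamini-Hochberg adjusted p of edgeR's quasi-likelihood test was below 0.05 over all genes tested. Scaling by total counts alone would shift the median over all genes tested from 0.02 to 0.15 (log2) and the share of calls that are higher from 50.8% to 63.8%. In the table's own exon coordinates none of the 9 genes shares exon bases with another gene.

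To show where the 2 cyclooxygenase genes start and how their starts differ, the 250 bases before a RefSeq start are printed for each (GRCh38.p14, gene strand), with those of PTGER2, which moved the other way. Capitals mark 4 motifs searched on both strands: CGTCA (the core of the cyclic AMP response element), CACGTG (the E box), TATAAA (the TATA box) and TGACNNNGC (the core of the antioxidant response element, which can overlap CGTCA read on the other strand).
PTGS2, chr1:186680424-186680673, minus strand: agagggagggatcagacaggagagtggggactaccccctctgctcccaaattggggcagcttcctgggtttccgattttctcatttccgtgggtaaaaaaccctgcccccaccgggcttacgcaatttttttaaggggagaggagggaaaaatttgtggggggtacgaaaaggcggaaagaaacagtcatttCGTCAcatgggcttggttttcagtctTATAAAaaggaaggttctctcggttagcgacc
PTGS1, upstream of its 2 listed starts, chr9:122370283-122370532, plus strand: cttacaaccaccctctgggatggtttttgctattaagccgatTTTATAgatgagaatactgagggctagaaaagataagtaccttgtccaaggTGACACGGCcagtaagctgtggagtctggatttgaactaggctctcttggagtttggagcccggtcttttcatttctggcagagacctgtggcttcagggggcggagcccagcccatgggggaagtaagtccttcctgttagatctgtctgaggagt
PTGER2, chr14:52314062-52314311, plus strand: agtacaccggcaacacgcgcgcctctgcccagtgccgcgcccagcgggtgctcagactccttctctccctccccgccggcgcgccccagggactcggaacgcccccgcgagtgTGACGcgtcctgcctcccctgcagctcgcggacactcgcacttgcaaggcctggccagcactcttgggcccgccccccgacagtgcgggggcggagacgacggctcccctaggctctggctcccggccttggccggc
The PTGS2 window holds TATAAA beginning 32 bases before the start and CGTCA beginning 58 bases before it. The printed PTGS1 window has TATAAA only far upstream and on the opposite strand (TTTATA as printed), 208 bases before the start, and TGACNNNGC 157 bases before it. The window of the other PTGS1 start, chr9:122375052-122375301, holds none of the 4 motifs, and 65.2% of its bases are G or C against 49.6% in the printed one. The PTGER2 window, in which 74.0% of bases are G or C against 50.4% for PTGS2, holds CGTCA on the opposite strand (TGACG as printed) 137 bases before the start and no TATAAA. Of 35116 RefSeq windows of this length, 21.2% hold CGTCA, 10.7% TATAAA, 6.34% CACGTG and 10.9% TGACNNNGC, so a match alone does not set a window apart. These shares count a match anywhere in the window on either strand. How often a match falls at a given distance from the start was not counted. RefSeq windows were found for 8 of the 9 genes, 12 windows in all, and 3 of the 12 hold CGTCA (PTGS2, PTGER2 and 1 of 2 for HPGD), 2 TATAAA, 1 CACGTG and 3 TGACNNNGC. A match describes the letters only.

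**Figure D1:**
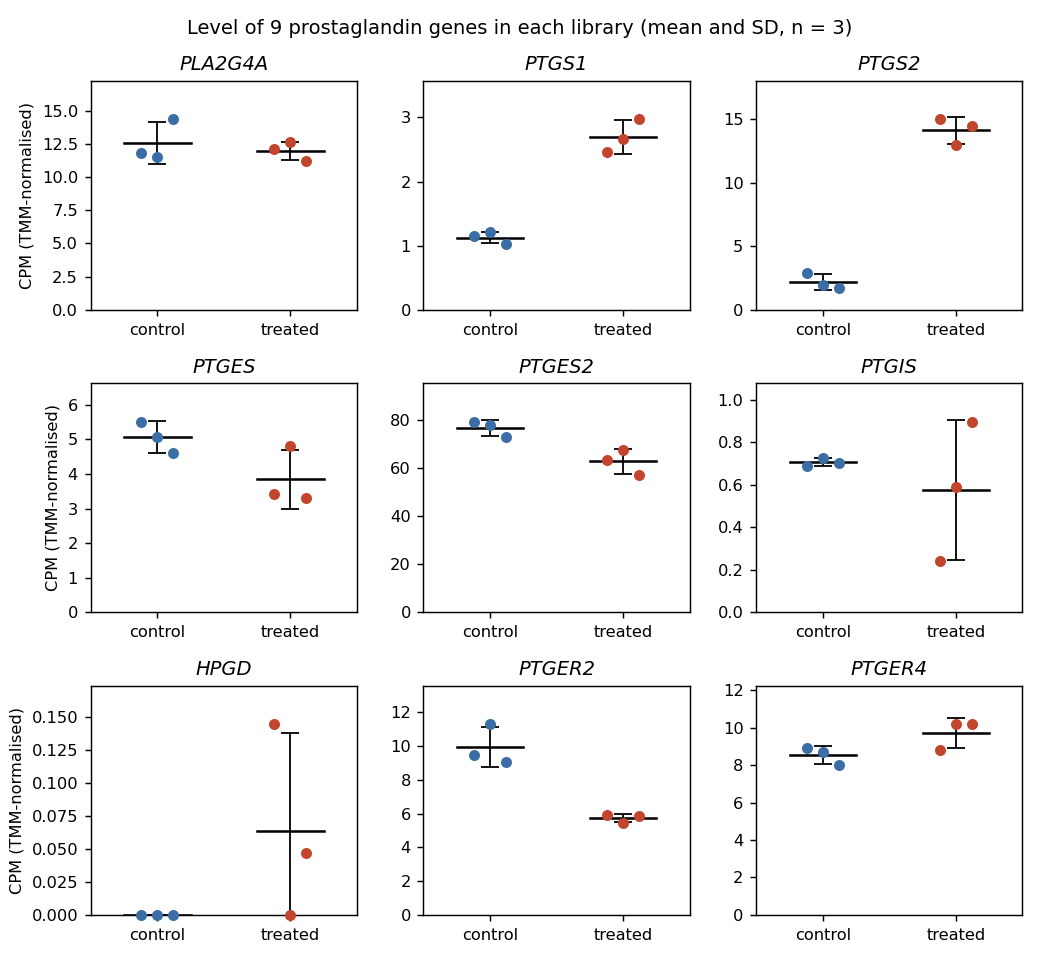
Level of each of the 9 genes in every library, in TMM-normalised CPM on axes that start at 0 and differ between panels; points are libraries, horizontal lines means and error bars SD (n = 3). PTGS1 and PTGS2 lie higher and PTGES2 and PTGER2 lower in all 3 treated libraries than in any control, while the groups overlap for the other 5 genes.

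The first step of the pathway showed no call at its main cytosolic enzyme. PLA2G4A (ENSG00000116711, GRCh38 chromosome 1, 186828953 to 186988981, plus strand) stood at 11.8, 11.5 and 14.3 CPM in controls and at 12.1, 12.6 and 11.2 CPM after treatment. The treated values lay within the range of the controls except that of replicate 3, which was just below it. The log2 change was -0.07 (SE 0.113, edgeR adjusted p = 0.608), and its sign turned to 0.06 with total-count scaling and to 0.03 without control replicate 3, the highest library.

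PTGS2 (ENSG00000073756, chromosome 1, 186671791 to 186680427, minus strand) had the largest change of the 9 genes. Its counts were 51, 33 and 32 in controls against 311, 263 and 306 in treated libraries, or 2.93, 1.995 and 1.73 CPM against 14.98, 12.9 and 14.4 CPM. Every treated library was thus far above every control, and control replicate 1 was the highest of the controls. The mean rose from 2.22 ± 0.63 to 14.1 ± 1.06 CPM, and the log2 change was 2.67 (SE 0.160, edgeR adjusted p = 6.59e-23). Counted from the largest increase, this ranks 408 among the 15575 genes tested. Leaving out 1 library at a time gave log2 changes between 2.50 and 2.92.

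PTGS1 (ENSG00000095303, chromosome 9, 122370530 to 122395703, plus strand) was scarce in both groups. Its counts were 20, 20 and 19 in controls against 51, 54 and 63 in treated libraries, or 1.15, 1.21 and 1.03 CPM against 2.46, 2.66 and 2.97 CPM. The groups did not overlap, as in 66.7% of all genes tested. PTGS1 rose from 1.13 ± 0.092 to 2.70 ± 0.26 CPM, and the log2 change was 1.25 (SE 0.278, edgeR adjusted p = 7.76e-05), with the size known only to within a fold of 1.97 to 2.89 at 1 SE either side.

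The balance of the 2 cyclooxygenases can be read only per length, as TPM, which divides counts by gene length and rescales each library to 1 total from the counts and the table's exon lengths. Per length, PTGS2 was 2.80, 1.81 and 1.85 times PTGS1 in the controls and 6.70, 5.35 and 5.34 times PTGS1 in the treated libraries. PTGS2 was the more abundant of the pair in all 6 libraries, and its lead was wider in each treated library than in any control. Its share of their summed level was 67.7 ± 5.21% in controls and 85.2 ± 1.60% in treated cells. The sum itself stood at 2.63 ± 0.52 TPM in controls and 14.1 ± 1.00 TPM in treated cells. These ratios were not tested. The lengths cover all listed exons of a gene, so this and other orders between genes per length depend on them. Which transcript forms were expressed was not examined.

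PTGS2 and PLA2G4A are neighbours on chromosome 1, with 148525 bases and 1 untested gene between them, and of this pair PTGS2 was called and PLA2G4A was not. The difference between their changes was not tested. PACERR, a non-coding RNA gene that starts beside PTGS2 on the opposite strand and was looked up after the values of PTGS2 were seen, had 8 counts over the controls and 11 over the treated libraries. The libraries carry no strand information.

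The prostaglandin E synthases did not follow the cyclooxygenases upward. PTGES2 (ENSG00000148334, chromosome 9, 128120693 to 128128462, minus strand), the membrane-associated synthase that is made in most cells, was the most abundant member. It stood at 79.2, 77.9 and 72.9 CPM in controls and at 63.4, 67.4 and 57.2 CPM after treatment. All treated values were below all controls, by a small margin. The mean fell from 76.7 ± 3.31 to 62.7 ± 5.16 CPM, and the log2 change was -0.29 (SE 0.0612, edgeR adjusted p = 3.58e-05), and a change beyond 1.5-fold was not called (glmTreat in edgeR, adjusted p = 1.00).

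PTGES (ENSG00000148344, chromosome 9, 129738331 to 129753047, minus strand), the inducible synthase usually coupled with COX-2, stood at 5.51, 5.08 and 4.60 CPM in controls and at 3.42, 4.82 and 3.30 CPM after treatment. Treated replicates 1 and 3 were below all controls and treated replicate 2 was among them. The log2 change was -0.40 (SE 0.183) and just missed the threshold (edgeR adjusted p = 0.0535). It was called lower without treated replicate 2 (-0.59, edgeR adjusted p = 0.0102), without control replicate 3 (-0.47, edgeR adjusted p = 0.0380) and by limma-voom (-0.41, adjusted p = 0.0494). Per length PTGES stood at 0.106 ± 0.0053 of the level of PTGES2 in controls and 0.0979 ± 0.015 in treated cells.

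PTGIS (ENSG00000124212, chromosome 20, 49503874 to 49568146, minus strand), prostacyclin synthase, was scarce, with 12, 12 and 13 control counts against 5, 12 and 19 after treatment. The treated libraries scattered on both sides of the tightly grouped controls. The log2 change was -0.29 (SE 0.447, edgeR adjusted p = 0.592), 0.08 without treated replicate 1 and -0.76 without treated replicate 3, so no direction was detectable.

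HPGD (ENSG00000164120, chromosome 4, 174490177 to 174523154, minus strand), the enzyme that starts the inactivation of prostaglandins, had 0 counts in all 3 controls and 3, 0 and 1 counts after treatment. It did not pass the filter and was not tested. The 0 control counts allow a level of up to 0.0572 CPM, and the treated mean was 0.0639 ± 0.074 CPM, so no fold is given.

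The 2 receptor genes went different ways. PTGER2 (ENSG00000125384, chromosome 14, 52314305 to 52328606, plus strand) stood at 9.48, 11.3 and 9.04 CPM in controls and at 5.93, 5.46 and 5.85 CPM after treatment. All treated values were below all controls and close to each other. The mean fell from 9.94 ± 1.202 to 5.75 ± 0.25 CPM, and the log2 change was -0.79 (SE 0.138, edgeR adjusted p = 1.30e-06). A change beyond 1.5-fold was not called (glmTreat in edgeR, adjusted p = 0.106).

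PTGER4 (ENSG00000171522, chromosome 5, 40679498 to 40693735, plus strand) stood at 8.90, 8.71 and 8.01 CPM in controls and at 8.82, 10.2 and 10.2 CPM after treatment. Treated replicates 2 and 3 were above all controls and treated replicate 1 was among them. The log2 change was 0.19 (SE 0.127, edgeR adjusted p = 0.191), and it was called with total-count scaling (0.32, edgeR adjusted p = 0.0267). Per length, PTGER2 was 1.71, 2.08 and 1.81 times PTGER4 in the controls and 1.08, 0.859 and 0.919 times PTGER4 in the treated libraries. Per length PTGER2 was thus the more abundant of the pair in every control and in 1 of 3 treated libraries, an order that depends on the exon lengths used. The ratios of the groups did not overlap and were not tested.

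**Figure D2:**
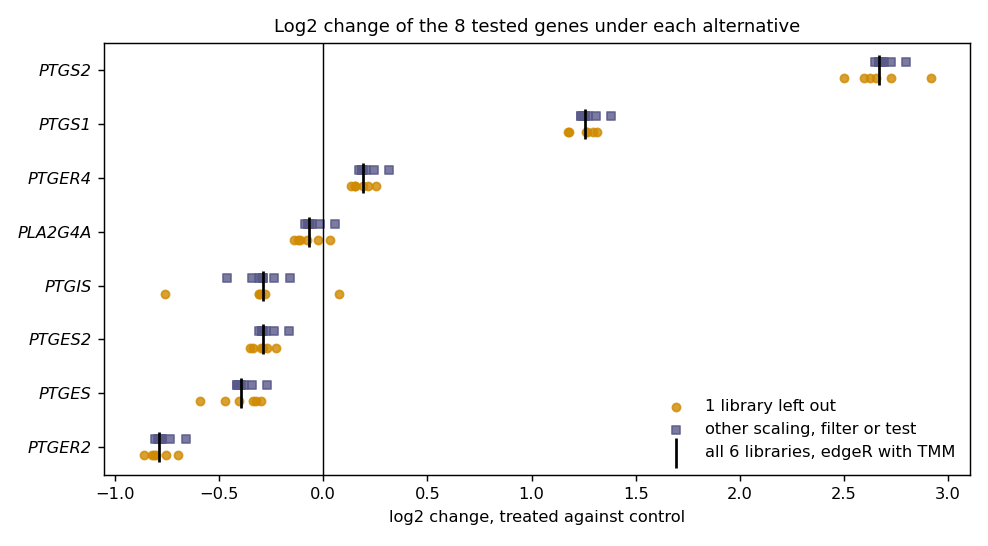
Log2 change of the 8 tested genes (x axis, treated against control) with all 6 libraries, TMM and edgeR (black bars), with 1 library left out (circles) and with another scaling, filter, test or the replicate block (squares). PTGS2, PTGS1, PTGES2, PTGES, PTGER2 and PTGER4 keep their side of 0 throughout, while PLA2G4A and PTGIS cross it.

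Set side by side per length, the controls were led by PTGES2 (108 ± 4.04 TPM), followed by PLA2G4A (18.6 ± 2.44), PTGER2 (17.2 ± 2.05), PTGES (11.4 ± 0.96), PTGER4 (9.20 ± 0.45), PTGS2 (1.80 ± 0.50), PTGS1 (0.832 ± 0.065) and PTGIS (0.540 ± 0.015 TPM), with HPGD at 0. PLA2G4A and PTGER2 did not differ beyond their spread. In treated cells PTGES2 (92.3 ± 6.78 TPM) and PLA2G4A (18.6 ± 0.91) still led. PTGS2 came next at 12.005 ± 0.97 TPM, level within the spread with PTGER4 (11.0 ± 0.91), and PTGER2 (10.4 ± 0.52) and PTGES (9.08 ± 1.92) followed. PTGS1 reached 2.09 ± 0.21 TPM and PTGIS stood at 0.463 ± 0.27 TPM. Among these 9 genes, the cyclooxygenase transcripts were therefore scarcer in controls than those of PLA2G4A, PTGES and PTGES2. In treated cells the PTGS2 transcript had moved into the range of PTGES, PTGER2 and PTGER4. Enzyme amounts and activity were not measured.

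The wider pathway was read from 4 lists (arachidonate release, prostanoid synthesis, breakdown and transport, prostanoid receptors) that hold 42 genes, 33 of them not among the 9. Of these 33, 22 were tested, 9 were higher and 6 lower, 7 were not called, and the median log2 change was 0.06. That is 15 calls of 22, near the 63.5% of all genes.

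Among the other genes of arachidonate release, 2 of 8 tested were higher and 3 lower. PLA2G4C, a relative of PLA2G4A, rose from 1.96 ± 0.16 to 5.41 ± 0.45 CPM (by 1.46 on the log2 scale, SE 0.202). PLA2G6 rose from 2.96 ± 0.62 to 5.41 ± 0.10 CPM (0.86, SE 0.188). The more abundant phospholipase gene PLA2G15 fell from 104 ± 4.96 to 70.8 ± 4.53 CPM (-0.55, SE 0.0573), and MGLL was also lower (-0.29, SE 0.0571). PLAAT3, a phospholipase and acyltransferase, fell from 25.98 ± 2.05 to 15.5 ± 0.39 CPM (-0.74, SE 0.0915). PLA2G6 shares 22.5% of its exon bases with another gene.

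Among the other synthases, 2 of 6 tested were higher and 2 lower. AKR1B1, an aldo-keto reductase that can make prostaglandin F2alpha, went up from 193 ± 7.08 to 292 ± 12.4 CPM (log2 change 0.60, SE 0.0482). PRXL2B, a prostamide and prostaglandin F synthase, fell from 23.4 ± 1.32 to 9.59 ± 0.96 CPM (-1.29, SE 0.103). PRXL2B shares 13.4% of its exon bases with another gene. TBXAS1, thromboxane synthase, rose from 1.28 ± 0.34 to 2.12 ± 0.047 CPM (0.73, SE 0.290, edgeR adjusted p = 0.0254), a call lost without control replicate 2 or 3 or treated replicate 2 or 3 (edgeR adjusted p up to 0.121) and with DESeq2 (adjusted p = 0.0539). AKR1C3 was called lower (-0.27, SE 0.0845, edgeR adjusted p = 0.00458), although its groups overlapped. PTGES3, the abundant cytosolic synthase and HSP90 partner p23, was not called (-0.06, SE 0.0462).

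All 3 prostaglandin reductase genes, whose enzymes act after the step of HPGD, rose. PTGR1, whose enzyme reduces 15-keto prostaglandins, stood at 55.3 ± 2.68 CPM in controls and rose to 94.8 ± 5.98 CPM (log2 change 0.78, SE 0.0598). PTGR2 rose from 3.02 ± 0.89 to 5.94 ± 0.58 CPM (0.97, SE 0.190) and PTGR3 from 8.01 ± 0.83 to 16.8 ± 2.04 CPM (1.07, SE 0.117). PTGR2 shares 17.2% of its exon bases with other genes. The prostaglandin exporter gene ABCC4 fell by 0.68 on the log2 scale, and SLCO2A1, the uptake carrier, had 0 counts in controls and 3 in treated libraries. With only 4 genes tested, 3 higher and 1 lower, the list is given as a description.

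**Figure D3:**
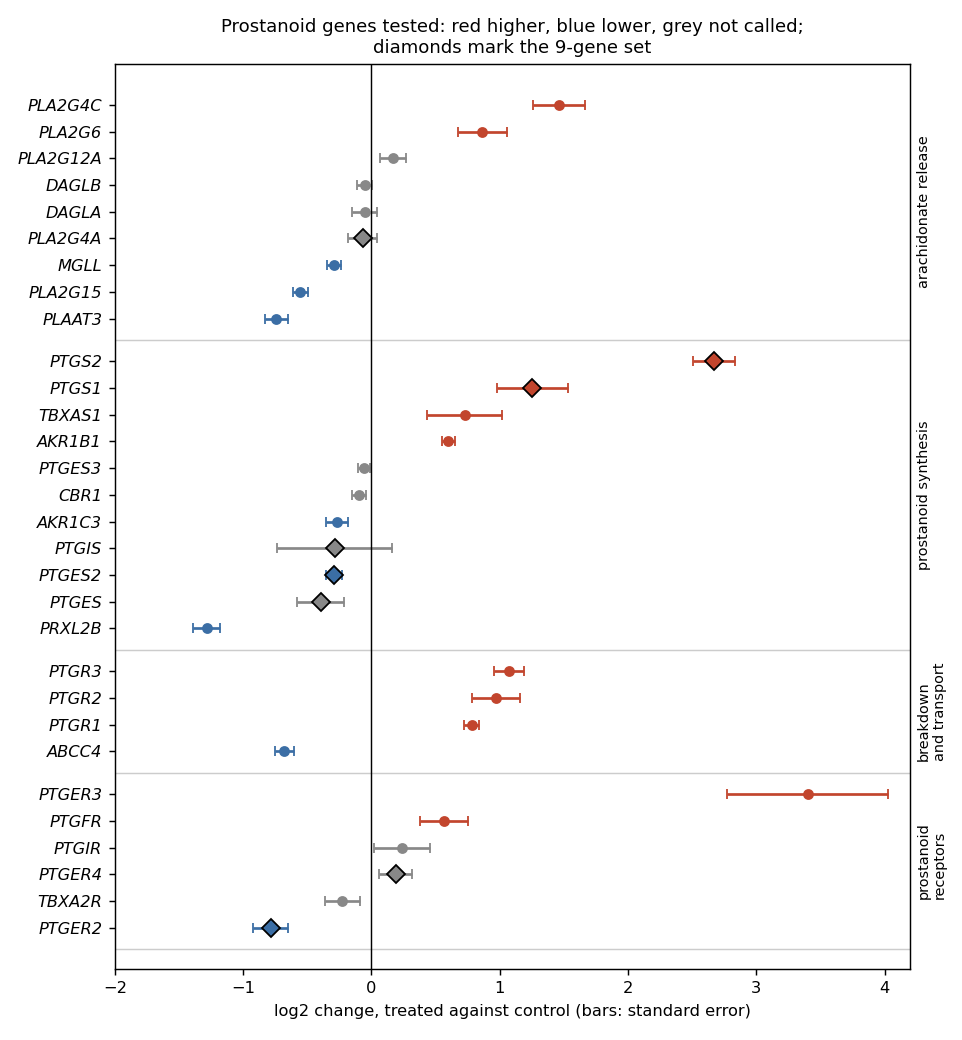
Log2 change (x axis, treated against control, bars SE) of the 30 tested genes of the 4 prostanoid lists, red where called higher, blue where called lower, grey where not called, with diamonds for the 9-gene set. PTGS2 and PTGS1 lead the synthases, PRXL2B lies lowest, and the 3 PTGR genes lie together on the right of 0.

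Of the 9 prostanoid receptor genes, 6 were tested. Besides PTGER2, which was lower, PTGFR and PTGER3 were higher, and PTGER4, PTGIR and TBXA2R were not called. PTGFR, the prostaglandin F receptor, rose from 3.31 ± 0.15 to 4.87 ± 0.77 CPM (log2 change 0.56, SE 0.187, edgeR adjusted p = 0.00738), a call lost without treated replicate 3, its highest library (0.42, edgeR adjusted p = 0.0820). PTGER3, the EP3 receptor that lowers cyclic AMP, had 2, 1 and 1 control counts against 19, 17 and 18 after treatment. The ratio of its summed counts was 11.4, with an exact 95% binomial interval of 4.19 to 43.2 that covers counting error only. Even so, PTGER3 reached only 0.402 ± 0.020 TPM. The summed level of the 9 receptors per length was 47.7 ± 3.31 TPM in controls and 46.0 ± 2.38 TPM in treated cells, a difference within the spread.

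**Figure D4:**
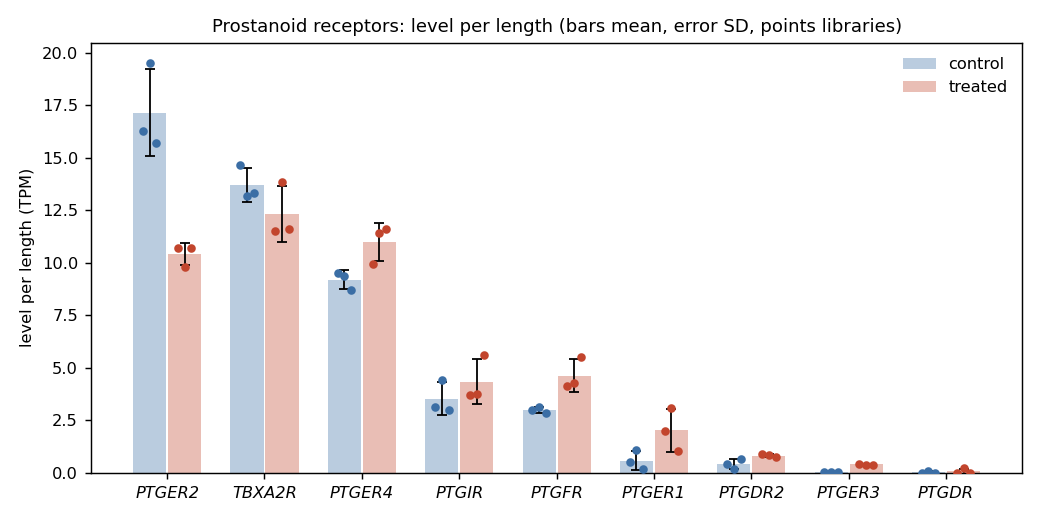
Level per length (TPM, linear axis from 0) of the 9 prostanoid receptor genes; bars are means, error bars SD and points libraries (n = 3 a group, control blue, treated red). PTGER2 leads in controls at 17.2 TPM and falls to 10.4 TPM, into the range of PTGER4 and TBXA2R in treated cells, while PTGDR, PTGER3, PTGDR2 and PTGER1 stay low.

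EP2 and EP4 signal through cyclic AMP, and a list of 11 genes that respond to it was examined. All passed the filter, and 9 rose, where 32.3% of all genes tested were called higher. The change was 2-fold or more for 6 of them, where 15.5% of all genes tested were called with such a change in either direction. The other 2, PDE4B and PER1, were not called (log2 changes 0.08 and 0.07), and the median of the 11 was 1.07. The orphan nuclear receptor genes NR4A3 (0.270 ± 0.081 to 3.04 ± 0.67 CPM, log2 change 3.47) and NR4A2 (0.601 ± 0.27 to 4.45 ± 0.25 CPM, 2.86) and the AP-1 gene FOS (2.12 ± 0.11 to 13.0 ± 1.93 CPM, 2.61) rose most. The list was chosen with earlier results of these data known, so its share of higher genes is a description only. These genes also respond to many other stress and growth signals, and cyclic AMP was not measured.

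PTGS2 mRNA is short-lived and is bound by decay factors and stabilisers. Of 8 such genes, all tested, 4 were higher and 3 lower, beside 32.3% and 31.2% of all genes tested. CELF2 rose by 1.12 (SE 0.187), ZFP36L2 by 0.75 (SE 0.0585) and ZFP36L1 by 0.51 (SE 0.0554) on the log2 scale. The 3 lower genes, ELAVL1, KHSRP and TIA1, had log2 changes of -0.12, -0.11 and -0.17, and none of them was called with upper-quartile or total-count scaling.

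Over the 6 libraries, the profiles most like that of PTGS1 among 13055 other protein-coding genes, by Euclidean distance between mean-centred log2 CPM, were those of DOCK4 (distance 0.138), RGCC (0.170) and MERTK (0.173). Those most like PTGS2 were ZFPM1 (0.293), PTGER3 (0.327) and TAF7L (0.335). ZFPM1 rose from 5.26 ± 0.98 to 32.0 ± 1.68 CPM. With 2 groups of 3 libraries such likeness rests mostly on the size of the group difference. PTGER3, with 2, 1 and 1 control counts, had a fitted log2 change of 3.40 against 2.67 for PTGS2. The log2 CPM profiles carry an added offset that shrinks the changes of scarce genes, and the likeness of PTGER3 to PTGS2 depends on it.

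Depth was 17150259 to 20193957 counts per library. Of 13 cardiomyocyte markers 11 were too scarce to test, with TNNI3 at 0 counts and TNNT2 at 4 counts in controls and 6 in treated cells, and the 2 tested were both lower. Among the untested markers, ACTN2 had 0 control counts against 9, 5 and 4 after treatment, and RYR2 had 0 against 9, 16 and 4. The transcription factor gene GATA4 was well expressed and fell from 17.9 ± 2.12 to 14.3 ± 2.19 CPM, and the natriuretic peptide gene NPPB had 41 counts over the controls and 3 over the treated libraries, a ratio of 0.0616 (exact 95% binomial interval 0.0122 to 0.193). Fibroblast markers were abundant, with a summed level of 24476 to 26964 CPM in controls and 13163 to 13991 CPM in treated cells, and 9 of 10 were called lower. Beside every marker count given here, 63.5% of all genes tested were called, 32.3% higher and 31.2% lower. In the blood and the endothelial list 5 markers each were tested, too few to set apart from that share. Of 6 blood and macrophage markers, 2 were higher (PTPRC and LYZ) and 1 lower, with a summed level of 3.84 to 5.46 CPM in controls and 6.55 to 7.93 CPM in treated cells, and LYZ was at 0 in controls. Of 6 endothelial markers, 3 were higher (PECAM1, KDR and CLDN5) and 1 lower (TEK). Their summed level was 21.7 to 24.7 CPM in controls and 12.5 to 13.3 CPM in treated cells. TEK made up most of the control sum and fell from 20.7 ± 0.63 to 7.01 ± 0.48 CPM, so the fall of the sum is that of TEK. The part of these in the changes of the prostaglandin genes was not tested, and in bulk RNA fewer cells that express a gene and less RNA per cell cannot be told apart.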

How the data were processed

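Polyadenylated RNA of AC16 cells was sequenced in 3 control and 3 treated libraries from unstranded TruSeq preparations, per the labels' protocols. The authors deposited raw counts per Ensembl gene, with exon coordinates and gene lengths in bases (another unit, a length and no measurement of RNA) per the file headers. Alignment and counting tools named in the submitters' processing notes are STAR, featureCounts of Subread, and SAMtools, with build hg38 (GRCh38); tool versions, counting settings and the annotation used are not given in the sources used here. Among 58299 identifiers, 57717 had a symbol in the name table; gene types came from GENCODE v29 and promoter sequences from RefSeq (GRCh38.p14).

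Genes were filtered with filterByExpr (minimum count 10), which left 15575, scaled by TMM and tested with edgeR 4.0.16 (glmQLFit, glmQLFTest; R 4.3.3), Benjamini-Hochberg adjusted over all of them. The SE is the log2 change over the square root of F. TPM used the table's lengths and no TMM factor. The script was tested on simulated data. Replicates differed by more than sampling noise (chi-square over degrees of freedom 2.84 to 3.77), so none was taken for a second deposit of another library, which does not show that they are separate cultures. The members and the 7 wider lists were chosen with earlier results of these data known. All members were named, and of each list the 3 other called genes with the largest change and at least 1 CPM in 1 group, plus the 3 profiles nearest to PTGS1 and to PTGS2; any other gene named was picked with its values in view. The fit was repeated with scaling by RLE, upper quartile or total counts, 2 other filters, DESeq2 1.42.0, limma-voom (limma 3.58.1), a replicate block, each library left out, an adjusted p of 0.01, glmTreat against 1.5-fold, and CPM in place of TPM. Other steps used Python 3.11.15, numpy 2.4.6, pandas 2.3.3 and scipy 1.17.1.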

Additional observations from a re-analysis of the deposited data

How the results depend on the processing

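PTGS1 and PTGS2 were called higher under all 16 alternatives of the test, with log2 changes of 1.18 to 1.38 and 2.50 to 2.92. PTGES2 (-0.35 to -0.16) and PTGER2 (-0.86 to -0.66) were called lower under all but glmTreat against 1.5-fold (log2 changes -0.29 and -0.79, edgeR adjusted p = 1.00 and 0.106), where 0 of the 9 genes were lower. PTGES was called by limma-voom (-0.41) and in 2 of 6 fits with a library left out (range -0.59 to -0.30), and PTGER4 with total-count scaling (0.32). PLA2G4A reversed to 0.058 with total-count scaling and to 0.031 without control replicate 3 (range with a library left out -0.14 to 0.03), and PTGIS reversed to 0.076 without treated replicate 1 (range -0.76 to 0.08). The cause of these shifts was not tested. At this depth 0 counts over the controls, as for HPGD, still allow up to 0.0572 CPM (counting error only).

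With glmTreat, 1852 genes of all were higher and 1141 lower. Its counts by list were 1 higher and 0 lower for arachidonate release, 2 and 1 for synthesis, 1 and 0 for receptors, 0 and 0 for the lipoxygenase branch and 2 and 0 for the control of PTGS2 mRNA decay, with 0 lower for breakdown and transport. Requiring 1 CPM or more in 3 libraries left 1 receptor gene higher, since PTGER3 was then not tested. In the decay list 0 were lower with upper-quartile or total-count scaling or at an adjusted p of 0.01, and in the lipoxygenase list 0 were lower with total counts or at 0.01. With 1 library left out, the lower count ranged from 1 to 3 in the decay list and from 0 to 1 in the lipoxygenase list. With CPM in place of TPM, no treated to control ratio of the 8 tested members moved beyond 1 SD. A gene's length cancels in such a ratio, so this compares only the scaling of the libraries. The ratios between genes, which do depend on length, were not repeated. For the 19 other named genes, 277 of 304 values kept their direction and call and 27 kept only the direction.

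The replicate numbers are shared by the groups but did not pair the libraries (correlations of the deviations of same-numbered libraries were -0.022 to -0.0071). With the replicate block, 4892 genes were higher and 4761 lower, and the block changed no call of the 9 genes (PTGS2 log2 change 2.68).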

Other observations

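Arachidonic acid also feeds the lipoxygenases, which make leukotrienes and related lipids. Of 12 genes of that branch 4 were tested, and all 4 were called (3 higher, 1 lower; median log2 change 0.37), where 63.5% of all genes tested were called. The leukotriene B4 receptor gene LTB4R rose from 8.05 ± 0.41 to 11.7 ± 0.71 CPM (0.54, SE 0.123). LTB4R2 had a log2 change of 0.62 (edgeR adjusted p = 0.0351) and shares 58.9% of its exon bases with other genes, LTB4R among them. Its call was lost without control replicate 1 or 2, without treated replicate 2 or 3 (edgeR adjusted p up to 0.141), with no filter and with DESeq2. ALOX12, the platelet-type lipoxygenase, fell by 0.44 on the log2 scale (edgeR adjusted p = 0.0188) and shares 18.8% of its exon bases with other genes. The call of ALOX12 was lost with total-count scaling (edgeR adjusted p = 0.100), without control replicate 1 (edgeR adjusted p = 0.0535) and without treated replicate 2 (edgeR adjusted p = 0.0806).

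Several genes below the filter differed in raw counts, and these were picked after their values were seen and were not tested. With no filter, the median log2 change over 36005 genes was 0.51, against 0.02 over the 15575 genes tested. Fitted changes of genes below the filter thus leaned higher, so a rise from 0 control counts cannot be taken as particular to those named. Such fits rest on few counts, and treated libraries were deeper (19732013 to 20193957 counts) than controls (17150259 to 19387496). The part of depth and of low counts in this lean was not tested. ALOX15 had 0 control counts against 13, 8 and 13 after treatment, at least 3.00-fold higher by the lower limit of the exact 95% interval against a floor of 3 counts over the control group (9.54-fold at the counts observed). HPGDS, the haematopoietic prostaglandin D synthase, had 0 control counts against 7, 3 and 5 after treatment, at least 1.19-fold higher by the same limit and floor (4.21-fold at the counts observed). Beside these, the macrophage gene LYZ had 0 control counts against 40 after treatment; whether these genes share a source was not tested. In the other direction PLA2G5, a secreted phospholipase, had 16, 17 and 8 control counts against 2, 3 and 3 after treatment, for a ratio of 0.164 with an exact 95% interval of 0.0665 to 0.355.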
